A study of Mus musculus with 15 samples.

Results

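A small set of regions held a large part of the reads counted in monolayers of 6DT1, a cell line from a mouse mammary tumor. The regions were chosen by their counts. The counts of the 15 libraries were summed for each region of the table made for the *Smarcd1* overexpression comparison. Regions on chromosomes X and Y and on the mitochondrial genome (chrM) were left out, and the 300 regions with the largest sums were taken. These are 300 of 36830 autosomal regions and of 38036 regions in the whole table. Their size is therefore a description and carries no test.

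The study altered *Smarcd1* in 6DT1 cells and asked how chromatin accessibility changed. The *Smarcd1* overexpression line (OE) carried a Myc-tagged *Smarcd1* cDNA and was selected with blasticidin. Both knockdown lines, named KD6 and KD4, carried a lentiviral shRNA against *Smarcd1* and were selected with puromycin. Their control, Scr, carried a scrambled shRNA in the same type of vector, and the control of OE carried an empty vector (EV) under blasticidin. The labels give the genotype of Scr and EV as wild type, and Scr and EV differ in vector and in selection drug. Each group had 3 libraries, grown as a monolayer in medium with serum. The labels say of their RNA protocol that replicates were seeded from different passages, so the libraries of a group are passages of 1 line and p-values measure the spread between such libraries. The labels do not say which knockdown line carried which of the study's shRNA sequences.

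ATAC-seq uses a transposase to insert sequencing adapters into accessible DNA, so reads pile up where chromatin is open. Repeated and multi-copy sequences can also gather many reads, because reads from several copies may be placed on 1 of them or shared out among them. SMARCD1 (BAF60A) is a subunit of the SWI/SNF (BAF) chromatin remodeling complex, which moves or evicts nucleosomes, and it links the complex to transcription factors. The study's methods describe ATAC-seq with alignment by Bowtie2, while the sample labels describe RNA extraction and the submitters' processing notes name the aligner STAR. Whether reads other than ATAC-seq reads entered the counts was not tested. Regions are in mm39 coordinates and no mm39 annotation was used here, so regions are given by position and rank, with no gene names, and *Smarcd1* itself and the markers of mammary cells were not checked.

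Library totals in this table lay between 22668622 and 31225956 counts. The 12 mitochondrial regions took between 3.29% (Scr replicate 3) and 5.08% (OE replicate 1) of these totals. Shares of a library given here are shares of these totals, which hold only counts in the listed regions. In every pair of replicates the difference exceeded counting noise.

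The 300 regions held 43.6% of all counts. They took 41.1%, 44.4% and 43.7% of the 3 OE libraries, 43.5%, 44.2% and 43.4% of the KD6 libraries and 45.1%, 41.2% and 42.6% of the KD4 libraries. In the controls they took 44.5%, 42.3% and 47.9% of the Scr libraries and 44.5%, 42.7% and 42.9% of the EV libraries. The groups overlapped, and Scr replicate 3 was the highest library. The share averaged 43.1% ± 1.69 in OE and 43.4% ± 0.994 in EV, and 43.7% ± 0.455 in KD6 and 43.0% ± 1.98 in KD4 against 44.9% ± 2.80 in Scr (SD, n = 3 each). Without Scr replicate 3, a choice made after seeing the data, the Scr mean was 43.4%. The next 300 regions by sum held 6.37% of all counts.

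**Figure D1:**
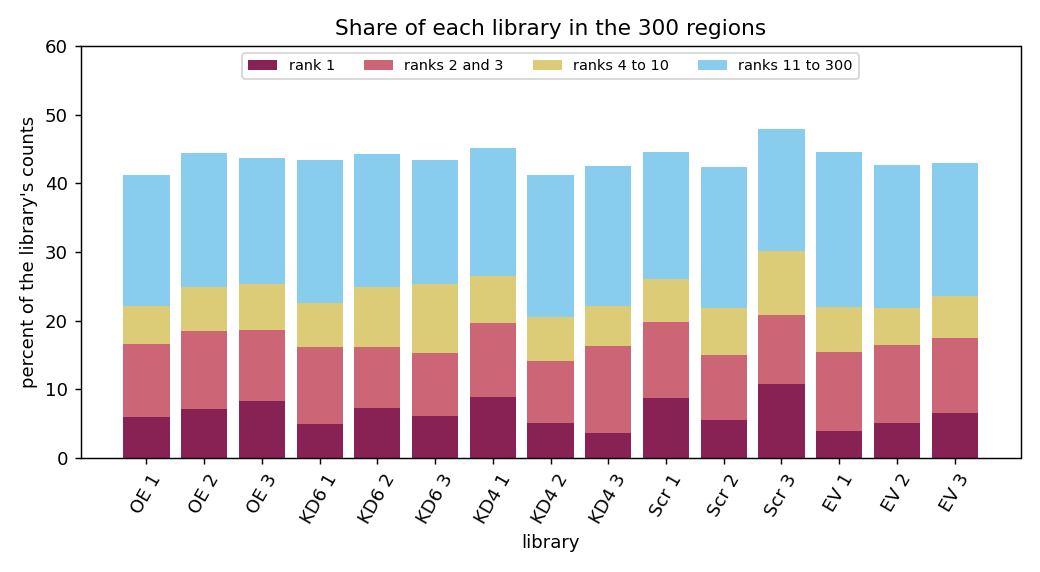
Percent of each library's counts that fell in the 300 regions, split by the rank of the region's sum, with 1 bar per library (3 libraries per group). The full bars lie between 41.1% (OE replicate 1) and 47.9% (Scr replicate 3), and the part at ranks 1 to 10 varies between 20.5% (KD4 replicate 2) and 30.1% (Scr replicate 3).

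The counts were concentrated at the very top of the order. The first region alone held 6.48% of all counts, the first 3 held 17.1%, the first 10 held 23.9% and the first 100 held 35.0%, while the first 1000 held 55.1%. Scr replicate 3 had the highest share in ranks 1 to 10 (30.1%) and the lowest in ranks 11 to 300 (17.8%). EV replicate 1 had the highest share in ranks 11 to 300, at 22.5%, and 22.0% in ranks 1 to 10.

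The end of the order was gradual. The last 3 regions inside the set (chr3:145584832-145585057, chr8:70463377-70463610 and chr6:140692720-140692892) had sums of 115507, 115481 and 114940 counts. The first 3 outside it (chr19:8980589-8981111, chr13:3349493-3349663 and chr19:8985621-8986074), had 114541, 114349 and 113878 counts. Ranked by counts per kilobase (kb), 234 of the 300 regions would have been taken, and ranked by the sum of CPM (counts scaled to the same total in each library), all but 2.

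The largest region, chr17:40153966-40156541, spans 2576 bp and held 25429188 counts. It took 5.98%, 7.13% and 8.35% of the OE libraries, 4.89%, 7.29% and 6.08% of the KD6 libraries and 8.84%, 5.11% and 3.64% of the KD4 libraries. It took 8.73%, 5.52% and 10.8% of the Scr libraries and 3.89%, 5.12% and 6.51% of the EV libraries. Every group overlapped with every other, and the lowest and the highest library, KD4 replicate 3 and Scr replicate 3, were 2.98-fold apart. The regions at ranks 9, 10 and 11 lie just downstream of it, at chr17:40156734-40157183, chr17:40157406-40158171 and chr17:40159236-40159602. Together these 4 regions, the only ones of the table in that stretch of 5637 bp, held 7.95% of all counts.

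The regions at ranks 2 and 3 are short and lie on chromosome 12, at chr12:69206125-69206286 (162 bp, 20852800 counts) and chr12:69408041-69408194 (154 bp, 20836550 counts). Per kb of length they held 128720988 and 135302273 counts, against 9871579 for the largest region. The first of them took between 4.44% (KD6 replicate 2) and 6.37% (KD4 replicate 3) of a library, with a median of 5.44%. The second followed it in every library: the ratio of the first to the second lay between 0.999 (EV replicate 1) and 1.002 (KD4 replicate 2). The SD of that ratio over the 15 libraries was 0.00142 on the log2 scale, under the 0.00175 that counting alone would give. Both regions are therefore not independent measurements. Chromosome 12 held 25.2% of the counts in the 300 regions, and its 10 members took 86.4% of that chromosome's counts.

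Ranks 4 to 8 were further single regions on other chromosomes. The region at rank 4, chr5:146197860-146198087, took between 1.32% (KD4 replicate 3) and 3.17% (KD6 replicate 3) of a library, with a median of 1.85%. The regions at ranks 5 and 6, chr14:51044959-51045163 and chr9:78082632-78082857, shared a pattern in which EV replicate 1 stood apart. It held 1.86% and 1.88% of its counts there, against medians over the 15 libraries of 1.01% and 0.991%. The region at rank 7, chr11:108902520-108902884, lay between 0.657% (KD4 replicate 3) and 1.88% (KD6 replicate 3). The region at rank 8, chr16:57211687-57211980, went the other way in EV replicate 1, which had 0.177%, against a median of 0.583% and a highest value of 1.52% in KD6 replicate 3.

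**Figure D2:**
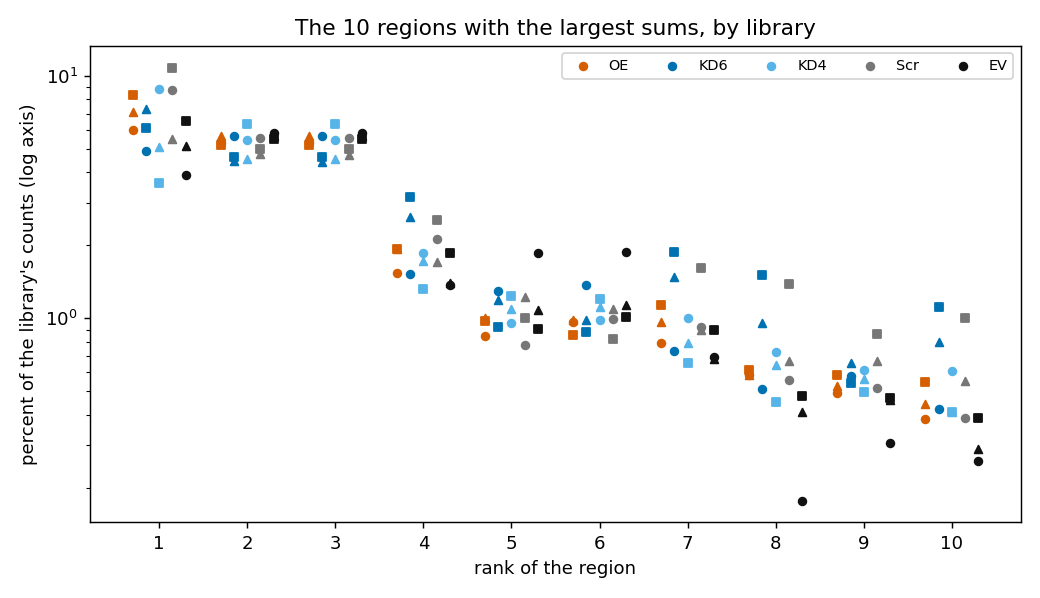
Percent of each library's counts (log axis) in the 10 regions with the largest sums, by rank. Circles, triangles and squares are replicates 1, 2 and 3, and the color gives the group. EV replicate 1 is the highest library at ranks 5 and 6 (1.86% and 1.88%) and the lowest at rank 8 (0.177%).

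The 300 regions were longer and far denser than the other autosomal regions. Their median length was 384 bp, against 269 bp in the other 36530 regions, and 23 of them (7.67%) were at least 1000 bp long, against 0.290% of the others. Only 56 of the 300 (18.7%) were under 250 bp, against 43.6% of the others. Their median density was 534014 counts per kb, against 7092 for the others. Members at both ends of the length range were present, between 154 and 2577 bp. Density is built from the sums that chose the regions, and a longer region gathers more counts, so these differences were not tested.

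The counts are expected counts, and some are not whole numbers. No source used here gives the step that made these fractions. At least 1 value that is not whole was found in 282 of the 300 regions (94%), against 27.8% of the other autosomal regions. In the next 300 regions by sum it was 91%, nearly as frequent. Among single values under 100000, 45.5% were not whole in the members and 33.9% in the next 300 regions. In the other autosomal regions it was 4.61%. Values of 100000 or more are written without decimals in the table, which hides any fraction in the largest regions.

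Members lay on all 19 autosomes, between 6 on chromosome 14 and 27 on chromosome 1. The 15 members on chromosome 17 took 79.2% of that chromosome's counts. On chromosome 4 the 9 members took 20.7%. Another member lay within 5000 bp of 91 of the 300 (30.3%), in 37 runs. Any region of the table lay that near to 55.7% of the members, against 73.1% of the other autosomal regions. The runs with the most members were 5 at chr1:24650714-24655176 (0.639% of all counts), 5 at chr19:5846197-5852599 (0.459%) and 4 at chr17:45879184-45882805 (0.264%). Besides these, the run of the largest region held 4. Some runs with fewer members held more counts, such as 3 at chr5:142888971-142891415 (0.585%). A wider stretch of chromosome 13, from position 21934369 to position 23945098 and chosen after its values were seen, held 17 members among 59 regions of the table. These 17 were between 188 and 556 bp long and held 0.679% of all counts.

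Several pairs of members kept a nearly fixed ratio across all 15 libraries. Among 44850 pairs the SD of the log2 ratio had a median of 0.263 and a first percentile of 0.0935. Besides the pair on chromosome 12, the smallest values were 0.0140 for chr15:93132288-93132443 with chr2:7081026-7081180, 0.0172 for chr3:96152894-96153265 with chr3:96147198-96147567, and 0.0239 for chr11:20284913-20285218 with chr2:28823522-28823797. Counting alone would give 0.0101, 0.0139 and 0.0175 for these pairs. The pair on chromosomes 15 and 2 held 702715 and 615236 counts, with a ratio between 1.12 and 1.16, although its regions lie on different chromosomes. Members of such pairs are not independent of each other, and their sequences were not examined here.

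The knockdown table of the same study lists 44598 regions of its own for the same 15 libraries. Of the 300 regions, 239 matched a region there by at least 50% of both lengths, 19 overlapped one by less, and 42 (14%) overlapped none, against 28.0% without overlap among the other autosomal regions. The 42 were short, with a median of 206 bp, and included 8 of the first 10 regions. They held 19.8% of all counts, against 16.0% in the 239 matched regions. At the matched regions the sum in the knockdown table was 0.991 of that in the overexpression table (median, 5th to 95th percentile 0.715 to 1.10). The region at rank 8, the only matched one of the first 10, had 487168 counts there against 2651762 in the overexpression table. The 19 regions that overlapped by less, the largest region among them, held 7.87% of all counts. Their median was 0.558. A library held on average 26174390 counts in the overexpression table and 19840641 in the knockdown table. The counts in the 42 regions equal 81.7% of that difference, but they are not its only part. The largest region, which is not among the 42, held 25429188 counts over the 15 libraries. The 1 region that overlaps it in the knockdown table is 219 bp long and held 1406908.

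Across the 15 libraries, the highest CPM of a member was 1.70-fold the lowest in the median, and 98 of the 300 stayed within 1.5-fold. The SD of log2 CPM within groups had a median of 0.189 in the 300 regions, 0.184 in the next 300 regions by sum and 0.257 in the other autosomal regions. It was 0.327 in the first 10 regions. At 10 members the highest library exceeded the lowest by 4-fold or more. EV replicate 1 was the lowest library at 8 of these 10, and without it 4 remained, a choice made after seeing the data.

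The member with the widest range was chr19:8229622-8229844, at rank 53. Scaled by TMM, its CPM was 929, 1117 and 1097 in OE, 1131, 1334 and 970 in KD6 and 1612, 887 and 620 in KD4. It was 963, 867 and 2317 in Scr and 152, 735 and 882 in EV. Before scaling, the highest library, Scr replicate 3, held 17.5-fold the CPM of the lowest, EV replicate 1. Without EV replicate 1 the range was 3.64-fold. The next widest were chr2:72843089-72843261 at rank 212, with a 15.3-fold range, and chr17:36542170-36542388 at rank 75, with 10.0-fold, between the same pair of libraries.

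A few libraries held most of the extremes. EV replicate 1 was the highest of the 15 libraries at 110 of the 300 regions (36.7%), against 5.85% of the other autosomal regions, and the lowest at 37. Scr replicate 3 was the lowest library at 91 regions (30.3%, against 9.97% of the others), KD6 replicate 3 at 59 (19.7%, against 6.19%) and Scr replicate 1 at 41. At the other autosomal regions EV replicate 1 was most often the lowest library, at 26.2%. These places use CPM before TMM scaling. EV replicate 1 had the lowest TMM factor, 0.869, with 0.948 next in EV replicate 2, so scaling raises its values relative to the other libraries.

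**Figure D3:**
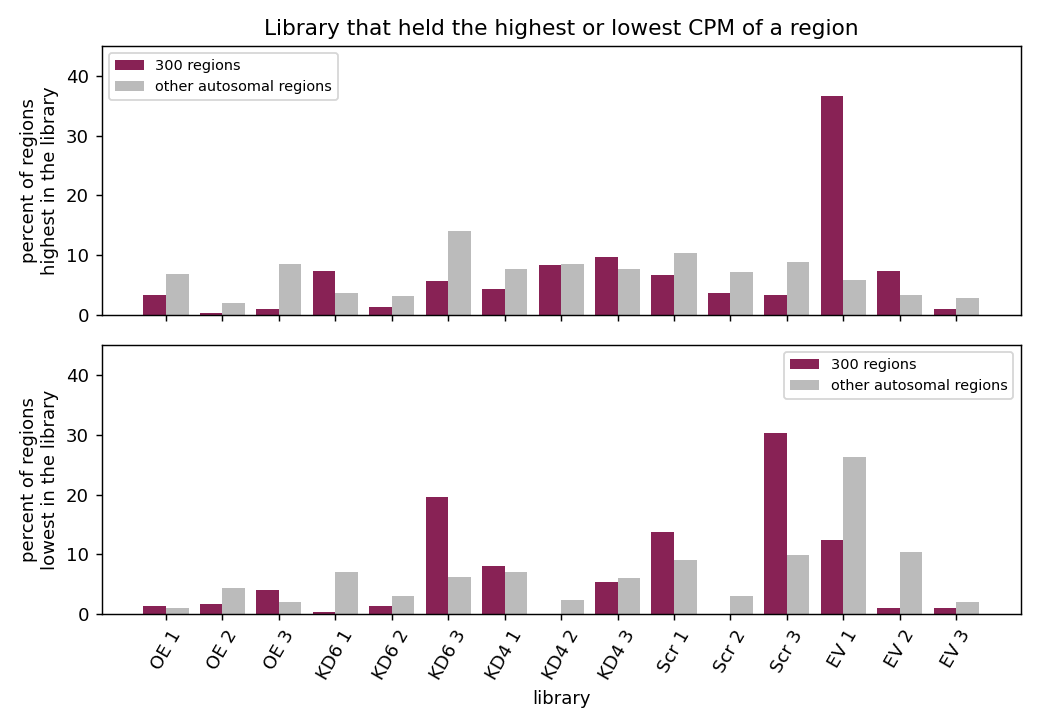
Percent of the 300 regions and of the other autosomal regions at which a library had the highest CPM (top) or the lowest CPM (bottom) of the 15 libraries, before TMM scaling. EV replicate 1 is highest at 36.7% of the 300 regions, against 5.85% of the others, and Scr replicate 3 is lowest at 30.3%, against 9.97%.

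Differences between groups were tested in edgeR over all regions that passed its filter on low counts, and all 300 regions passed. A region was called at a false discovery rate (FDR, Benjamini-Hochberg adjusted p) under 0.05. The rule that chose the regions did not use any difference between groups.

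In OE against EV cells no member was called, and 0.0106% of the 37765 regions tested were, all of them higher in OE. DESeq2 called no member either. At an unadjusted p under 0.05 there were 75 of the 300 members, where 8.57% of all regions passed. Of these, 8 were higher (2.67%, against 4.37% of all regions) and 67 lower in OE (22.3%, against 4.20%). The median log2 fold change of the members was -0.22, against 0.02 over all regions tested. It was negative at 268 of the 300 members, while 53.6% of all regions were positive. Libraries of the groups did not overlap at 66 members lower and 5 higher in OE, where 7.30% and 7.00% of all regions behaved so. Without EV replicate 1 the number at an unadjusted p under 0.05 was 20 (6.67%, against 6.49% of all regions) and the median log2 fold change -0.16. Without OE replicate 1 or 3 the number was 18 or 15 (6% or 5%, against 5.26% or 4.11%). It was 114 without EV replicate 3 (38.0%, against 13.9%). Without OE replicate 2 or EV replicate 2 it lay between the lowest and the highest of these numbers. With the replicate number as a block it was 121 (40.3%, against 13%). With no TMM scaling the median over all regions moved to 0.12 and that of the members to -0.12.

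The members with the smallest p in this comparison did not pass. At chr2:172351443-172351596 (rank 119, 154 bp) the CPM was 559, 483 and 517 in OE, against 1541, 693 and 622 in EV. The groups did not overlap, and EV replicate 1 was far above the other libraries. This gave a log2 fold change of -0.85 ± 0.25 (SE), with an edgeR adjusted p of 0.569, and -0.33 without EV replicate 1. At chr10:20084236-20084591 (rank 221) the CPM was 341, 351 and 340 in OE, against 952, 459 and 392 in EV, again without overlap and with EV replicate 1 far above the rest. The estimate was a log2 fold change of -0.78 ± 0.23 (SE), with an adjusted p of 0.569 as well, and -0.30 without EV replicate 1. Across the alternatives the adjusted p of these regions lay between 0.145 and 0.967.

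Among the first 10 regions, 6 had a positive log2 fold change in OE against EV and 4 a negative one, between -0.64 and 0.66. The 4 regions in the run of the largest region, on chromosome 17, were all positive, between 0.26 and 0.46. The 17 in the stretch of chromosome 13 were all negative, with a median of -0.22. The median of all 300 members was -0.22 too. None was called. In Scr against EV, where neither line alters *Smarcd1*, both sets had the same directions. There the 4 were all positive (median 0.61) and the 17 all negative (median -0.27, 1 called).

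The mean of KD6 and KD4 was set against Scr in 1 fit of the 9 libraries. No member was called by edgeR or by DESeq2, and 0.164% of the 37868 regions tested were called by edgeR. At an unadjusted p under 0.05 there were 8 members (2.67% of the 300, against 9.86% of all regions). The median log2 fold change of the members was 0.09, against -0.02 over all regions. The number at an unadjusted p under 0.05 was 39 without KD6 replicate 3 (13% of the 300, against 15.8% of all regions), 31 without Scr replicate 2 (10.3%, against 12.6%) and 18 without KD4 replicate 1 (6.00%, against 12.2%). With each other library left out it was under the 8 of the full fit. The number of members called stayed at 0 in each case.

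Each knockdown line was also set against Scr alone. No member was called in KD6 against Scr, where 0.0158% of all regions were, nor in KD4 against Scr, where 0.293% were. At an unadjusted p under 0.05 there were 1 member in KD6 against Scr (0.333% of the 300, against 6.46% of all regions) and 16 in KD4 against Scr (5.33%, against 10.3%). These counts moved with single libraries. In KD6 against Scr the number lay between 0 and 38 over the alternatives. The 38 came without KD6 replicate 3 (12.7% of the members, against 13.4% of all regions). In KD4 against Scr it lay between 4 and 38, with 38 without Scr replicate 2 (12.7%, against 13%). Even these highest shares of the members were under those of all regions. DESeq2 called none of the members in KD6 against Scr, where it called 0.267% of all regions, and 1 (0.333%) in KD4 against Scr, where it called 0.956%. The median log2 fold changes of the members were 0.09 in KD6 and 0.08 in KD4.

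The member called by DESeq2 was chr1:162532005-162533278 (rank 213, 1274 bp). Its CPM was 330, 269 and 227 in KD4, against 457, 360 and 467 in Scr. The groups did not overlap. In KD6 it was 342, 432 and 440, which overlapped with Scr. The log2 fold change in KD4 against Scr was -0.64 ± 0.17 (SE), with an edgeR adjusted p of 0.151 and a range of 0.0313 to 0.525 over the alternatives. In the mean of the knockdown lines against Scr it was -0.36 ± 0.14 (SE), with an edgeR adjusted p of 0.437.

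Other members with a small p in the knockdown comparisons did not pass either. At chr3:88410090-88410555 (rank 194) the CPM was 544, 462 and 383 in KD6 and 498, 431 and 503 in KD4, against 345, 397 and 371 in Scr. Here KD4 lay above Scr and KD6 overlapped with it. The log2 fold change of the mean of the knockdown lines was 0.34 ± 0.13 (SE), with an edgeR adjusted p of 0.424. At chr8:15569833-15570074 (rank 49) the CPM was 1034, 1548 and 2478 in KD6, against 644, 1341 and 975 in Scr, with overlap and with KD6 replicate 3 highest. This gave a log2 fold change of 0.77 ± 0.32 (SE), with an edgeR adjusted p of 0.721, and 0.39 without KD6 replicate 3. At chr3:90513096-90513249 (rank 242) the CPM was 260, 288 and 327 in KD4, against 440, 400 and 355 in Scr, without overlap. The estimate was a log2 fold change of -0.45 ± 0.16 (SE), with an edgeR adjusted p of 0.309.

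The difference between both knockdown lines was tested in the same fit. No member was called in KD6 against KD4 by edgeR or DESeq2, where edgeR called 0.190% of all regions, and 8 members (2.67%) had an unadjusted p under 0.05, against 5.04% of all regions. The number of members with such a p moved with the alternative, so it is not read as a result about the members. The smallest p was that of chr1:162532005-162533278, with a log2 fold change of 0.56 ± 0.17 (SE) and an edgeR adjusted p of 0.432. It was followed by chr6:145878558-145878717 (rank 174), where the CPM was 446, 654 and 890 in KD6, against 267, 461 and 462 in KD4. The groups overlapped by the lowest KD6 library, the log2 fold change was 0.74 ± 0.29 (SE) and the edgeR adjusted p 0.803. Without KD6 replicate 3 the log2 fold change was 0.47.

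The 17 members in the stretch of chromosome 13 all had a positive log2 fold change in the mean of the knockdown lines against Scr, between 0.16 and 0.43 with a median of 0.25, and none was called. Of all 300 members 228 were positive in this comparison (76.0%). The 4 regions in the run of the largest region, on chromosome 17, were all negative, between -0.49 and -0.10, with none called. Over all regions tested 47.2% were positive and the median was -0.02.

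**Figure D4:**
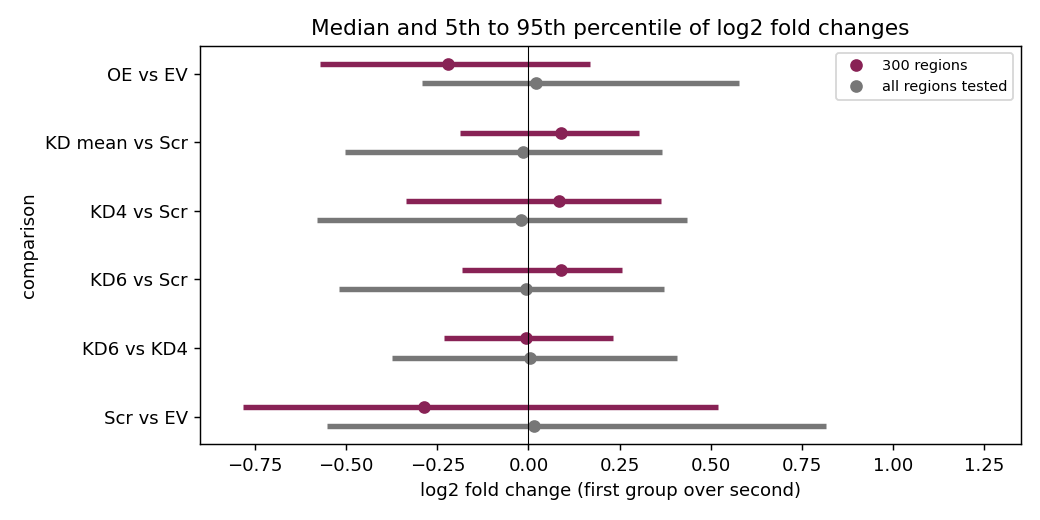
Median (point) and 5th to 95th percentile (line) of the log2 fold change in each comparison, for the 300 regions and for all regions tested in edgeR. The median of the 300 regions is -0.22 in OE vs EV, 0.09 in KD mean vs Scr and -0.29 in Scr vs EV, while that of all regions lies between -0.02 and 0.02 in all 6 comparisons.

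The controls were compared with each other, since they differ in vector and drug and neither alters *Smarcd1*. In Scr against EV 21 members were called, 8 higher and 13 lower in Scr, where 2.41% and 2.93% of all regions were called in these directions. That is 7.00% of the 300, against 5.34% of all 37671 regions tested. At an unadjusted p under 0.05 there were 101 members (33.7%, against 26.7% of all regions), and 85 of these were lower in Scr (28.3%, against 12.7%). The median log2 fold change of the members was -0.29, against 0.02 over all regions. The count of calls depended on single libraries. It was 2, 5 and 47 without EV replicate 1, 2 and 3 (0.667%, 1.67% and 15.7% of the members), where 0.732%, 0.965% and 7.93% of all regions were called. It was 1, 38 and 2 without Scr replicate 1, 2 and 3 (0.333%, 12.7% and 0.667%), where 0.461%, 10.7% and 0.548% of all regions were called. DESeq2 called 44 members (14.7%, against 5.74% of all regions), and a fit with the replicate number as a block called 68 (22.7%, against 11.8%).

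The call with the smallest p was chr8:85571006-85571385 (rank 273, 380 bp). Its CPM was 444, 412 and 445 in Scr, against 184, 172 and 164 in EV. The groups were far apart and each varied little, at 434 ± 18.9 in Scr and 173 ± 10.2 in EV (SD, n = 3 each). The log2 fold change was 1.32 ± 0.17 (SE), a 2.49-fold difference, with an edgeR adjusted p of 0.000341. It was called in all 16 alternative settings, with an adjusted p between 1.57e-18 and 0.00506. The other lines went with their own control: the CPM was 405, 372 and 448 in KD6 and 409, 409 and 428 in KD4, and 143, 152 and 159 in OE.

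The region chr10:86534215-86534541 (rank 296) had the same arrangement. Its CPM was 467, 335 and 329 in Scr, against 226, 213 and 224 in EV, without overlap. This gave a log2 fold change of 0.76 ± 0.18 (SE), with an edgeR adjusted p of 0.0252, and it was called in 13 of 16 alternatives, all but those without EV replicate 1, EV replicate 2 or Scr replicate 1. The CPM was 334, 344 and 415 in KD6, 307, 341 and 350 in KD4 and 209, 206 and 213 in OE. All 9 libraries of KD6, KD4 and Scr thus lay above all 6 libraries of OE and EV. At chr16:10961888-10962126 (rank 27) the CPM was 1866, 1661 and 3150 in Scr, against 772, 1085 and 1257 in EV, with a log2 fold change of 1.09 ± 0.26 (SE) and an edgeR adjusted p of 0.0233. The groups did not overlap, but KD4, at 2153, 1525 and 1180, overlapped with EV. The region was called in 11 of 15 alternatives, all but those without EV replicate 1 or 2 or Scr replicate 1 or 3.

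None of the 3 lower calls with the smallest p was made without EV replicate 1. At chr6:140692720-140692892 (rank 300, 173 bp) the CPM was 206, 256 and 171 in Scr, against 1053, 320 and 269 in EV. The groups did not overlap by a narrow margin, and EV replicate 1 was far above the others. The log2 fold change was -1.38 ± 0.34 (SE), with an edgeR adjusted p of 0.0276, and without EV replicate 1 it was -0.48 and not called. At chr4:3973196-3973508 (rank 151) the CPM was 354, 472 and 333 in Scr, against 923, 668 and 535 in EV, with a log2 fold change of -0.88 ± 0.22 (SE) and an edgeR adjusted p of 0.0281. At chr13:23944911-23945098 (rank 277) the CPM was 165, 270 and 225 in Scr, against 636, 387 and 274 in EV, with a log2 fold change of -0.98 ± 0.25 (SE) and an edgeR adjusted p of 0.0298. Without EV replicate 1 the log2 fold changes were -0.64 and -0.58. All 3 were also lost without Scr replicate 1 or Scr replicate 3. The regions at ranks 300 and 277 lie near the end of the order, with sums of 114940 and 120872 counts. Before TMM scaling EV replicate 1 held 915 and 553 CPM there, against medians over the 15 libraries of 264 and 299. These counts are part of the sums that chose both regions, so their calls are not independent of that choice.

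**Figure D5:**
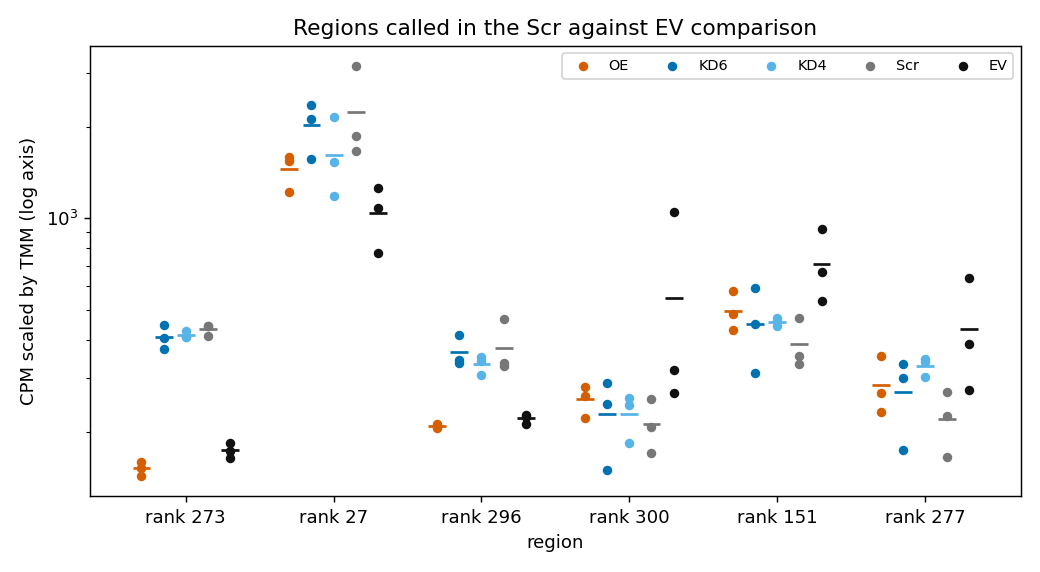
CPM scaled by TMM (log axis) in the 6 regions named for Scr against EV, with 1 point per library, a line at each group mean and 3 libraries per group. At ranks 273 and 296 all libraries of KD6, KD4 and Scr lie above all libraries of OE and EV, and at ranks 300, 151 and 277 EV replicate 1 is the highest point (1053, 923 and 636).

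The arrangement of rank 273 was looked for in all members after its values had been seen. At 5 members (1.67%) all 9 libraries of KD6, KD4 and Scr lay above all 6 of OE and EV, against 0.766% of 37967 regions, and at 2 members (0.667%) they all lay below, against 0.648%. Vector, drug and line cannot be told apart in this split. The 5 members above were chr19:5846197-5847671, chr2:34665637-34666323, chr8:85571006-85571385, chr11:120452994-120453324 and chr10:86534215-86534541. At the first of these, rank 17 and the largest region of its run on chromosome 19, the 9 libraries had between 2203 and 2913 CPM with a median of 2461, and the 6 had between 1673 and 2114 with a median of 1848. At chr2:34665637-34666323 (rank 143) the lowest of the 9 had 526 CPM and the highest of the 6 had 457. The members below were chr1:24653177-24653789, in the run of 5 on chromosome 1, and chr17:26488396-26488980. At the one on chromosome 1 the 9 libraries had between 742 and 1164 CPM and the 6 between 1311 and 1922.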

How the data were processed

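The study's methods describe nuclei treated with Tn5, paired-end sequencing, alignment to mm39 with Bowtie2 and peak calling with MACS in Partek Flow; the submitters' notes list STAR 2.7.8a with mm39, and the sample labels describe RNA. No source used here gives the steps that merged peaks and assigned reads. The authors deposited expected counts per region, not normalized, of which 95.0% (overexpression table) and 95.1% (knockdown table) were whole numbers; they were rounded to whole numbers for tests. Each table holds another 15 columns that match no sample and were not used. Samples were grouped by their titles. Counting error at these sums is small beside the spread between libraries.

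Tests across regions used edgeR 4.0.16 under R 4.3.3 (quasi-likelihood fit, TMM, filterByExpr, Benjamini-Hochberg FDR 0.05 over all regions tested). OE and EV were fitted together, KD6, KD4 and Scr together, and Scr and EV together; CPM per library was scaled by TMM over all 15 libraries. The procedure was tested on simulated data. DESeq2 1.42.0, other scalings, filters and thresholds, a replicate block, each library left out and the knockdown table were alternatives. The members, the stretch of chromosome 13 and the lists were chosen with earlier results of these data known. Regions named were the 10 largest, the 3 regions on either side of the threshold, and per comparison the 3 higher and 3 lower calls with the smallest p and no overlap between groups, or where none was called the 2 members with the smallest p; others were named after their values were seen. Reference tables are of other builds than mm39, so gene lists, marker lists and sequences were not used.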

Additional observations from a re-analysis of the deposited data

How the results depend on the processing

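In OE against EV, KD mean against Scr, KD6 against Scr and KD6 against KD4 the number of members called was 0 under every alternative, and in KD4 against Scr it was 0 except for 1 lower call by DESeq2 (0.333%, against 0.956% of all regions). In Scr against EV 21 members were called. The number was 1 at an FDR of 0.01 (0.333%, against 0.348% of all regions), 54 at an FDR of 0.1 (18%, against 13.8%), 44 by DESeq2 (14.7%, against 5.74%), 11 with at least 50 counts in 3 libraries (3.67%, against 4.29%), 8 at the 239 regions matched in the knockdown table (3.35%, against 4.38%), and 32 with all 15 libraries in 1 fit (10.7%, against 6.22%). It lay between 1 and 47 with each library left out. The tests did not pair the samples by their numbers. The correlation used to judge pairing by number lay between -0.06 and 0.34 for same-numbered libraries of OE and EV. There 2 of 3 pairs were the best match by number. In KD6, KD4 and Scr the correlations lay between -0.36 and 0.38, and 3 of 9 pairs were the best match. In Scr and EV they lay between 0.06 and 0.24, and all 3 pairs were the best match. These values do not measure how alike the libraries were in the level of each region. Across the 15 libraries the highest CPM of a member was 1.70-fold the lowest in the median. With the replicate number as a block 68 members were called in Scr against EV (22.7%, against 11.8% of all regions), and 0 in each other comparison. The split of the Scr against EV calls was 8 higher and 13 lower with TMM, 12 and 8 with no TMM and 13 and 6 with upper quartile scaling, where the median of all regions moved to 0.13 and 0.15. The median log2 fold change of the members was negative in OE against EV and Scr against EV, and positive in KD mean against Scr and KD4 against Scr, under all alternatives, and in KD6 against Scr positive except without KD6 replicate 1 (-0.01). Of 272 values of the named regions under an alternative, 251 kept their direction and their side of the threshold, 20 lost the call, 1 gained it and 0 turned. Most of these values are of regions not called in the main fit, where keeping the side means staying uncalled. All 20 losses fell on the named calls of Scr against EV. Of the higher ones, chr8:85571006-85571385 was called in 16 of 16 alternatives, chr10:86534215-86534541 in 13 of 16 and chr16:10961888-10962126 in 11 of 15. Of the lower ones, chr4:3973196-3973508 was called in 12 of 16, chr13:23944911-23945098 in 11 of 16 and chr6:140692720-140692892 in 11 of 15. The 300 regions held 47.0% of a library's counts on average with chrM, chrX and chrY out of the total, 100 regions held 35.0% and 1000 regions 55.1%. With 3 libraries a group, differences smaller than the spread between libraries were not detectable.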
